A study of Homo sapiens with 18 samples.

Results

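The 10 genes described here encode chaperones of the endoplasmic reticulum (ER) and parts of the unfolded protein response: HSPA5, HSP90B1, CALR, PDIA4, DNAJB9, SDF2L1, HERPUD1, SYVN1, ERN1 and ATF6. They were taken by symbol from the 60252 gene IDs in each library, not by their values, and 10 of 10 were among the 21285 genes that passed the low-count filter and were tested. RNA came from ZR-75-1, an established luminal breast cancer cell line, as a control line that the labels call SHC and as an ADAR knockdown line. ADAR edits adenosine to inosine in double-stranded RNA. Each line was left untreated, given the vehicle DMSO or given 100 nM triptolide, an inhibitor of transcription by RNA polymerase II, for 16 h in medium with 1% serum. The labels print 100 nM for the vehicle as well. Each of these 6 groups held 3 libraries, numbered as biological replicates 1 to 3. The labels name a single knockdown line and do not say how it was made, so an effect of less ADAR cannot be told apart from other differences between the lines.

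The ER is where secreted and membrane proteins enter the secretory pathway, fold, acquire disulfide bonds and are inspected. When unfolded chains build up, membrane sensors signal: ERN1 (IRE1) splices the mRNA of the transcription factor XBP1, ATF6 is cleaved in the Golgi to release a transcription factor, and EIF2AK3 (PERK) slows translation and favours ATF4. XBP1 and ATF6 act through the ER stress response elements of chaperone and degradation genes, and chains that fail to fold are carried to the cytosol and degraded.

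The promoters were read first, because these elements are the sequence feature by which the family is known to respond. In a RefSeq table of promoters (GRCh38.p14, 250 bases before to 50 bases after the start) 10 of 10 genes were found. The ER stress response element (ERSE), searched as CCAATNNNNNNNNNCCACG on both strands, lay in those of HSPA5, CALR and, with 2 copies, HSP90B1. The related ERSE-II, searched as ATTGGNCCACG on both strands, lay in those of HERPUD1 and SDF2L1. Of all 35116 RefSeq promoters, 0.0769% held the first, 0.0541% the second and 0.131% either, and no promoter held both. The 2 motifs share the letters CCACG and ATTGG or its complement, and matches were exact, so a site with a mismatch was not counted. The windows below are printed because they carry the match, in capitals, on the strand of the gene, 5′ to 3′. A match on the opposite strand reads as its reverse complement. Each window was placed on GRCh37 by a single exact match on its chromosome.
HSPA5, chr9:128003623-128003772, minus strand: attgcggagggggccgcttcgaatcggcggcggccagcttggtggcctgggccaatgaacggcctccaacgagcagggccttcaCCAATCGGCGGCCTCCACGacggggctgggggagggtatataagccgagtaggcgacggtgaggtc
HSP90B1, chr12:104323974-104324137, plus strand: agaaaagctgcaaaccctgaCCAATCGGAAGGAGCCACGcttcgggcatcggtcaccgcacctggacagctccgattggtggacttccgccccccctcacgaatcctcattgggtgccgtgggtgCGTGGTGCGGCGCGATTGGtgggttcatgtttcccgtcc
CALR, chr19:13049178-13049236, plus strand: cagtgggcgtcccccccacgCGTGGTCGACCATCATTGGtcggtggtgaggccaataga
HERPUD1, chr16:56965917-56965967, plus strand: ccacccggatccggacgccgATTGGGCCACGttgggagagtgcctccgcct
SDF2L1, chr22:21996383-21996433, plus strand: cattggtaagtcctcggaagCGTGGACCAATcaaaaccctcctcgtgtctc

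The elements lay close to the start used in the RefSeq promoter table, from which the distances here are counted. That start can differ from the gene models printed below. The HSP90B1 window lies inside its model, which begins at 104323885, and the HSPA5 window overlaps its model, which reaches to 128003661. The match in HSPA5 ended 48 bases upstream of the start and that in HERPUD1 ended 107 bases upstream. In HSP90B1 the copies ended 176 and 71 bases upstream, the second on the opposite strand. Those of CALR and SDF2L1, both on the opposite strand, ended 207 and 178 bases upstream. PDIA4, DNAJB9, SYVN1, ERN1 and ATF6 had neither set of letters in this window.

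Counts in genes, in units of 1e6, ranged from 26.71 to 35.67 per library, and mitochondrial ribosomal RNA took 20.18 to 37.07% of them without triptolide and 42.71 to 55.17% with it. ADAR mRNA, the check of the labels, was below control in 9 of 9 pairs of libraries matched by treatment and number, at 31.2 to 77.5% of control. The log2 ratios of pairs 1, 2 and 3 were -0.43, -0.97 and -0.61 untreated and -0.64, -0.90 and -0.37 with DMSO. With triptolide they were -1.68, -1.51 and -1.17. All 8 luminal epithelial markers reached 1 CPM (counts per 1e6 counts in genes, TMM-scaled) on average over the libraries. Of 5 plasma cell markers, a cell type rich in ER, 1 reached that level (MZB1), and their summed level stayed between 1.32 and 4.91 CPM in every group. Basal markers reached it for 2 of 5, leukocyte and fibroblast markers for 1 of 5 each and endothelial markers for 1 of 2 found. The summed basal level was 1.8 to 4.35 CPM without and 4 to 8.14 CPM with triptolide. The fibroblast marker LUM was at 0 throughout, and the summed fibroblast level was 8.4 to 22 CPM without and 13.9 to 32.9 CPM with triptolide. The part of these markers in the results was not tested.

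Levels are CPM after TMM scaling, which takes most genes as unchanged between libraries. In the DMSO control cells, levels per length (CPM per kilobase of the canonical transcript, mean ± SD, n = 3) spanned a wide range. CALR, the calcium-binding lectin chaperone calreticulin, stood highest at 505 ± 49.8. HSP90B1, the ER form of HSP90 (GRP94), followed at 359 ± 101, PDIA4, a protein disulfide isomerase, at 81.5 ± 11.4 and HSPA5, the ER form of HSP70 (BiP), at 46.5 ± 5.84. SDF2L1, a partner of HSPA5 and its cochaperones, stood at 26.0 ± 4.29, HERPUD1, a membrane protein of the degradation machinery, at 15.9 ± 6.03 and SYVN1, the ubiquitin ligase HRD1, at 15.1 ± 1.29. ATF6 reached 8.84 ± 2.57, DNAJB9, a cochaperone of HSPA5 (ERdj4), 3.66 ± 0.878 and ERN1 1.63 ± 0.158. CALR, HSP90B1, PDIA4 and HSPA5 thus stood above the degradation genes and the sensors on this scale. Neighbours in this order whose libraries overlapped were SDF2L1 with HERPUD1 and HERPUD1 with SYVN1. In libraries from bulk cells, fewer cells of a type and less RNA per cell cannot be told apart.

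**Figure D1:**
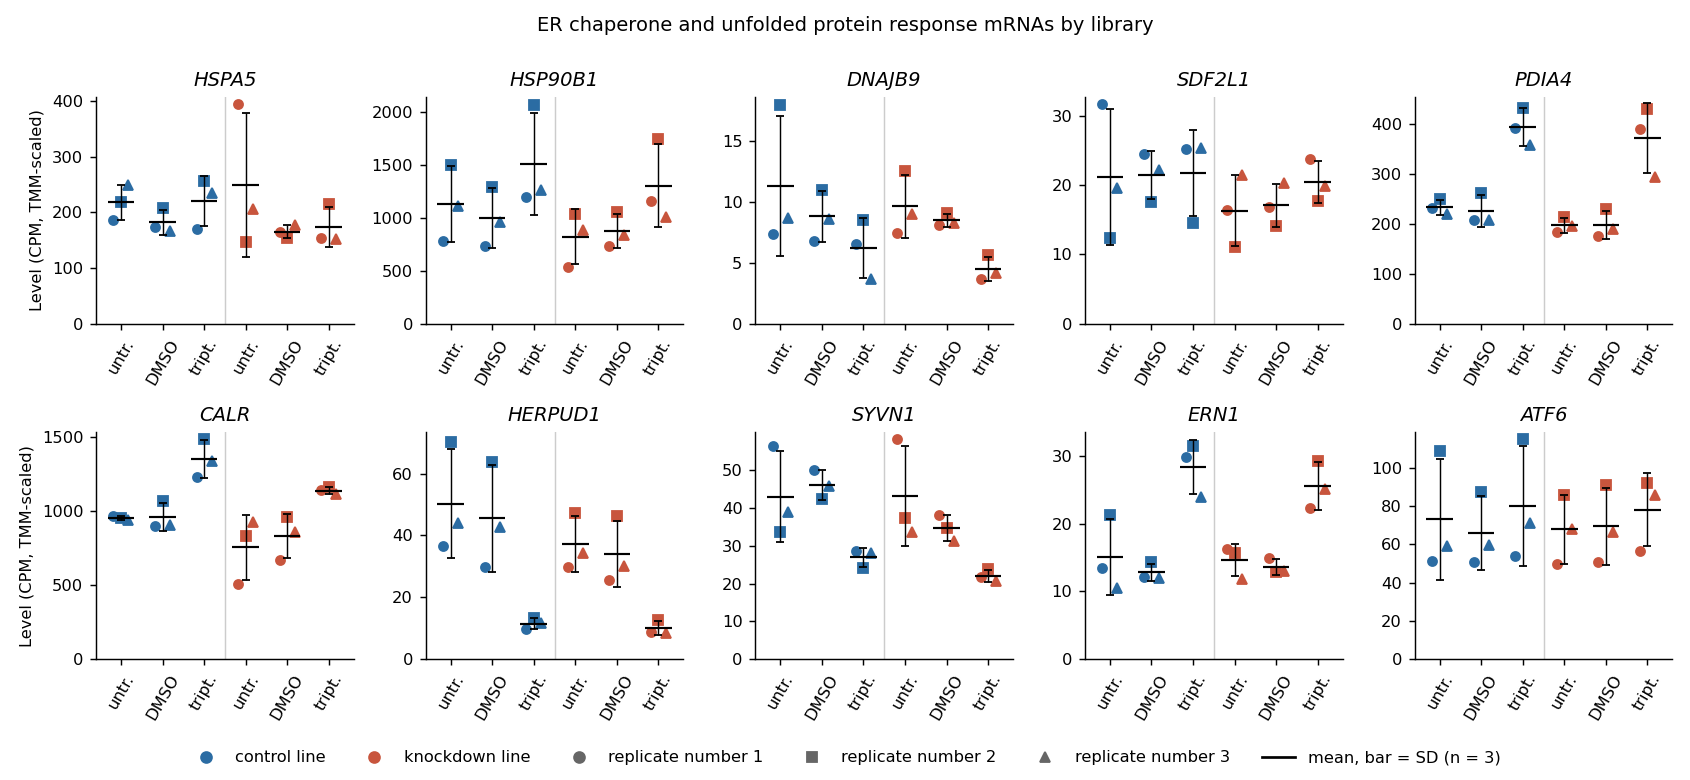
Level of each of the 10 mRNAs in CPM after TMM scaling (linear axes from 0) in every library, by group, with control libraries in blue, knockdown libraries in red, and a symbol for each replicate number. Bars are the mean and SD of 3 libraries. HERPUD1 dropped to 8.62 to 13.2 CPM in the 6 triptolide libraries from 25.7 to 70.3 CPM in the 12 others, while PDIA4 lay between 294 and 432 CPM in the 6 and between 175 and 262 CPM in the 12.

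Triptolide was compared with DMSO within each line to see how these mRNAs stood after 16 h of the inhibitor. Relative to the bulk of mRNAs, PDIA4 and ERN1 rose and HERPUD1 and SYVN1 fell in both lines, and DNAJB9 fell in the knockdown line. HERPUD1 made the largest change of the 10, to a level 3.94-fold lower in the control line. In the control line 2 of the 10 passed the test upward and 2 downward, beside 14.9% of all tested genes upward and 16% downward. In the knockdown line 2 passed upward and 3 downward, beside 16.7% and 18.9%. The test was edgeR's quasi-likelihood test with Benjamini-Hochberg adjustment over all 21285 genes, called at an adjusted p under 0.05. With the replicate number as a block HSP90B1 and CALR were also called as higher in both lines, which made 4 upward (26.1% of all tested genes) and 2 downward (26%) in the control line and 4 (29.1%) and 3 (28.1%) in the knockdown line. All genes tested had a median log2 change of 0.03 and 0.04.

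These directions are relative to the median gene. When libraries were scaled to their total counts, which the mitochondrial ribosomal RNA enters, the median log2 change of all genes became -0.60 in the control and -0.67 in the knockdown line. No member was then called as higher and 3 were called as lower in each line. Of all 21285 genes tested, 1600 were then called as higher and 7575 as lower in the control line, and 1507 and 8513 in the knockdown line. PDIA4 stood at 0.18 and 0.20 and ERN1 at 0.52 and 0.20 there, neither called. Scaled to the 13 mitochondrially encoded mRNAs the median became -0.79 and -1.36. There 0 members were higher and 2 lower in the control line and 0 higher and 6 lower in the knockdown line. All genes tested had 1064 higher and 5988 lower in the control line, and 827 and 11413 in the knockdown line. Relative to the median of all genes in the control line, PDIA4 stood at 0.77 with TMM, 0.78 with total counts and 0.83 with mitochondrial mRNAs, and HERPUD1 at -2.01, -1.99 and -1.93. DNAJB9 stood at -0.53, -0.51 and -0.34. Taking off the median removes any shift common to all genes.

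Among the chaperones, PDIA4 (ENSG00000155660.10_2, chr7:148700154-148725754, minus strand of GRCh37) measured 208, 262 and 207 CPM in the DMSO control libraries 1, 2 and 3 and 392, 432 and 357 CPM with triptolide. In the knockdown line it measured 175, 229 and 190 CPM with DMSO and 389, 430 and 294 CPM with triptolide. Each triptolide library lay above each DMSO library in both lines. The log2 changes were 0.80 ± 0.18 (SE, adjusted p = 0.00272, edgeR) and 0.90 ± 0.18 (adjusted p = 0.000958), or 1.75-fold and 1.87-fold. PDIA4 forms and rearranges disulfide bonds in chains entering the ER.

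CALR (ENSG00000179218.13_1, chr19:13049392-13055303, plus strand), which holds newly made glycoproteins and calcium, measured 901, 1069 and 909 CPM in DMSO control cells and 1228, 1485 and 1338 CPM with triptolide. In knockdown cells it went from 672, 960 and 862 CPM to 1141, 1162 and 1113 CPM. The groups did not overlap in either line. The log2 changes of 0.49 ± 0.20 and 0.45 ± 0.20 were not called by edgeR (adjusted p = 0.0754 and 0.0913), and were called with the replicate block (adjusted p = 0.00867 and 0.0102). DESeq2 called the control line change (adjusted p = 0.0451).

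HSP90B1 (ENSG00000166598.13_2, chr12:104323885-104347709, plus strand), which folds a set of client receptors and secreted proteins, measured 737, 1293 and 964 CPM in DMSO control cells and 1196, 2067 and 1266 CPM with triptolide. In knockdown cells it measured 735, 1056 and 839 CPM and then 1157, 1748 and 1008 CPM. With TMM scaling the triptolide library was the higher one in 6 of 6 pairs, while the groups overlapped, with libraries numbered 2 the highest of each. The share of all tested genes higher in 6 of 6 pairs is not given here. The log2 changes of 0.60 ± 0.32 and 0.57 ± 0.32 had adjusted p = 0.164 and 0.167 in edgeR, against 0.00157 and 0.00225 with the replicate block. With total counts HSP90B1 stood at -0.03 and -0.12.

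HSPA5 (ENSG00000044574.7_1, chr9:127997132-128003661, minus strand), the chaperone that also holds the sensors inactive, measured 173, 208 and 166 CPM with DMSO and 171, 256 and 235 CPM with triptolide in the control line, and 165, 154 and 178 CPM and 154, 215 and 153 CPM in the knockdown line. The groups overlapped in both lines. The log2 changes were 0.28 ± 0.28 (95% interval -0.31 to 0.86, adjusted p = 0.487, edgeR) and 0.07 ± 0.28 (-0.52 to 0.66, adjusted p = 0.866).

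Of the cochaperones, DNAJB9 (ENSG00000128590.4_1, chr7:108210311-108215294, plus strand) measured 8.13, 9.11 and 8.23 CPM in DMSO knockdown libraries and 3.69, 5.61 and 4.18 CPM with triptolide, with no overlap. Its log2 change of -0.92 ± 0.35 passed the edgeR test narrowly (adjusted p = 0.0498, and 0.000954 with the replicate block). It was not called with median-of-ratios scaling (adjusted p = 0.067), by DESeq2 (0.0574), or after leaving out any of 5 of the 6 libraries compared, DMSO libraries 1 to 3 (0.0749, 0.101 and 0.079) and triptolide libraries 1 and 3 (0.144 and 0.11). In the control line it went from 6.82, 11.0 and 8.58 CPM to 6.52, 8.52 and 3.66 CPM, a change of -0.50 ± 0.35 (adjusted p = 0.299) with overlapping groups. SDF2L1 (ENSG00000128228.4_1, chr22:21996591-21998588, plus strand) lay between 14.1 and 24.5 CPM in the DMSO libraries and between 14.6 and 25.4 CPM in the triptolide libraries of both lines. Its log2 changes were 0.02 ± 0.32 (adjusted p = 0.974) and 0.26 ± 0.32 (adjusted p = 0.555).

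Both genes of ER-associated degradation fell. HERPUD1 (ENSG00000051108.14_2, chr16:56966054-56978776, plus strand), a membrane protein that gathers the degradation complex, measured 29.9, 63.9 and 42.7 CPM in DMSO control cells and 9.87, 13.2 and 11.6 CPM with triptolide. In knockdown cells it went from 25.7, 46.2 and 30.1 CPM to 8.87, 12.8 and 8.62 CPM. Every triptolide library lay below every DMSO library. The log2 changes were -1.98 ± 0.32 (adjusted p = 0.000228, edgeR) and -1.75 ± 0.32 (adjusted p = 0.000481), 3.94-fold and 3.37-fold lower.

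SYVN1 (ENSG00000162298.17_2, chr11:64889252-64902003, minus strand), the ligase at the core of that complex, measured 50, 42.2 and 45.8 CPM in DMSO control cells and 28.7, 24.0 and 28.0 CPM with triptolide. In knockdown cells it went from 38.1, 34.7 and 31.1 CPM to 21.6, 23.8 and 20.6 CPM, with no overlap in either line. The log2 changes were -0.77 ± 0.22 (adjusted p = 0.0134, edgeR) and -0.66 ± 0.22 (adjusted p = 0.0286). In the knockdown line the call was lost without DMSO library 1 (adjusted p = 0.0827) or 2 (0.0558) and without triptolide library 1 (0.0695) or 3 (0.0736). The model of SYVN1 overlaps those of MRPL49, on the opposite strand, and FAU, on the same strand, which held 90530 and 150834 counts over the 18 libraries against 20936 for SYVN1. Whether counting used strand is not given in the sources used here, so reads from the shared stretches may have been split or lost.

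Of the sensors, ERN1 (ENSG00000178607.15_1, chr17:62116440-62208179, minus strand) measured 12.2, 14.3 and 12 CPM in DMSO control cells and 29.9, 31.4 and 23.9 CPM with triptolide, and in knockdown cells 14.9, 12.9 and 13 CPM and then 22.3, 29.3 and 25.1 CPM. No triptolide library was as low as a DMSO library. The log2 changes were 1.14 ± 0.24 (adjusted p = 0.00156, edgeR) and 0.91 ± 0.24 (adjusted p = 0.00618), 2.21-fold and 1.88-fold higher. ATF6 (ENSG00000118217.5_2, chr1:161736088-161947364, plus strand) measured 50.9, 87.6 and 59.6 CPM with DMSO and 54.2, 115 and 71.3 CPM with triptolide in the control line, and 50.8, 91 and 66.4 CPM and then 56.5, 92.2 and 85.8 CPM in the knockdown line. With TMM scaling the triptolide library was the higher one in 6 of 6 pairs, by 0.02 to 0.39 on the log2 scale, while the groups overlapped. As for HSP90B1, the share of all tested genes with 6 of 6 pairs higher is not given here. With total counts ATF6 stood at -0.36 and -0.51. Its log2 changes of 0.28 ± 0.34 (95% interval -0.44 to 0.99, adjusted p = 0.576) and 0.17 ± 0.34 (-0.54 to 0.89, adjusted p = 0.723) were not called.

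**Figure D2:**
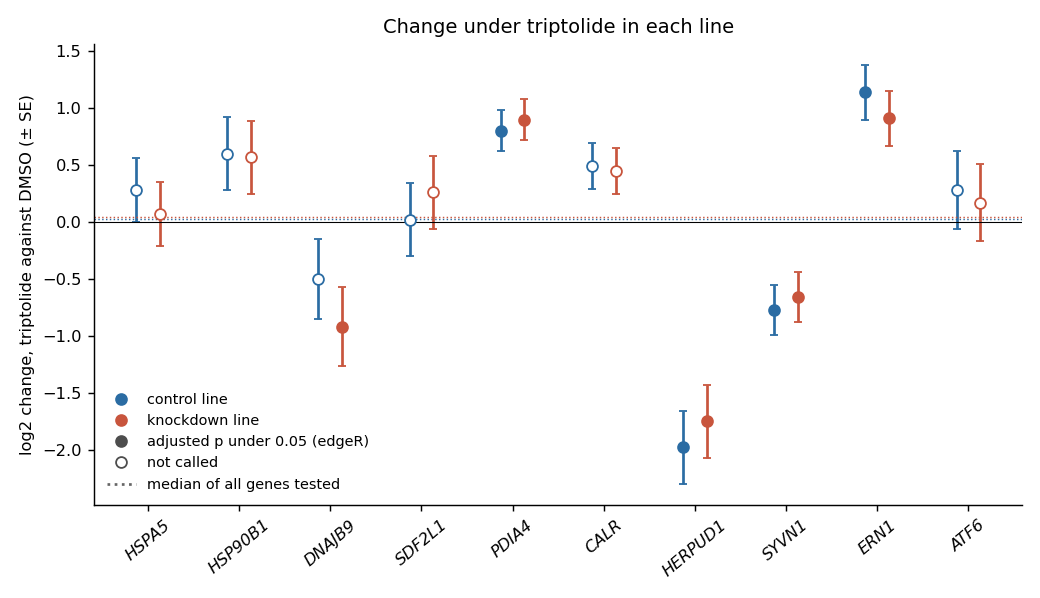
log2 change of each mRNA under triptolide against DMSO, with its SE, in the control (blue) and knockdown (red) line. Filled points passed the edgeR test over all genes, open points did not, and dotted lines mark the median of all genes tested (0.03 and 0.04). PDIA4 and ERN1 stand above and HERPUD1 and SYVN1 below the line in both.

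The triptolide response was then compared between the lines. No member differed in its response (edgeR interaction test, 0 of 10 called, 0 at an unadjusted p under 0.05, and 0 by DESeq2), beside 0% of all genes tested. The differences of the log2 changes, knockdown minus control, ran from -0.42 for DNAJB9 (95% interval -1.46 to 0.61) to 0.24 for SDF2L1 (-0.71 to 1.18). For PDIA4 the difference was 0.10 (-0.43 to 0.63), for HERPUD1 0.23 (-0.70 to 1.15), for SYVN1 0.12 (-0.54 to 0.78) and for ERN1 -0.23 (-0.93 to 0.46). These intervals are from the fit without the replicate block and do not show that the lines respond alike. With the block the SE of the difference went from 0.44 to 0.20 for HERPUD1. It went from 0.48 to 0.18 for ATF6 and from 0.39 to 0.35 for HSPA5, and 0 of 10 were called. The DNAJB9 call in 1 line only was not matched by a difference between the lines that passed the test.

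Other genes of the same pathways, in 5 lists of sensors and transcription factors, chaperones and folding enzymes, degradation, translocation, and export, were all tested. Of these 26 rose and 11 fell under triptolide in the control line and 22 rose and 15 fell in the knockdown line, with median log2 changes of 0.24 and 0.26, beside 14.9% and 16%, and 16.7% and 18.9%, of all tested genes. With the replicate block 46 rose and 23 fell (26.1% and 26% of all tested genes), and 47 rose and 28 fell (29.1% and 28.1%). The balance turned without the low-count filter, to 7 higher and 16 lower in the control and 13 and 19 in the knockdown line, and leaving out DMSO library 3 left 19 calls in the control line. It turned with the scaling as well: with total counts 0 were called as higher and 38 and 47 as lower, and with mitochondrial mRNAs 0 as higher and 26 and 74 as lower. Of all 21285 genes tested, 1600 and 1507 were called as higher and 7575 and 8513 as lower with total counts. With mitochondrial mRNAs 1064 and 827 were higher and 5988 and 11413 lower, so all genes turned in the same way. Shares of all genes without the low-count filter are not given here. Chaperones and folding enzymes had 9 higher and 1 lower of 30 in the control line (median 0.48) and 7 and 1 in the knockdown line (0.52). Translocation genes had 8 and 1 of 23 (0.41), then 7 and 2 (0.33), and export genes 6 and 2 of 19 (0.22), then 5 and 3 (0.28). Degradation genes had 2 and 3 of 26 (0.02), then 2 and 4 (-0.18). Sensors and transcription factors had 1 higher and 4 lower of 19 (-0.27), then 1 and 5 (-0.36). No set test was made, no list is set apart from these counts, and those of the degradation list were below the shares of all tested genes.

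Within the regulatory list the largest change was that of XBP1, the target of the ERN1 nuclease. XBP1 measured 424, 573 and 533 CPM in DMSO control cells and 23.5, 51.5 and 32.8 CPM with triptolide, and in knockdown cells 488, 553 and 482 CPM and then 24.8, 39.7 and 30.1 CPM. It was 14.2-fold and 16.1-fold lower (log2 changes -3.83 ± 0.29 and -4.01 ± 0.29, adjusted p = 2.25e-07 and 1.47e-07, edgeR). The counts do not separate its spliced from its unspliced form. PPP1R15B, which helps to end the translational arrest, fell by 1.26 and 1.87 on the log2 scale, and MAP3K5, a kinase of stress signalling, by 0.99 and 0.98. ATF4, the effector of the EIF2AK3 branch, fell from 198 ± 55 (SD, n = 3) to 110 ± 18 CPM in the control line (-0.85 ± 0.28, adjusted p = 0.029) and from 189 ± 44.2 to 102 ± 13.8 CPM in the knockdown line (-0.89 ± 0.28, adjusted p = 0.0195). EIF2AK3 itself had changes of -0.27 ± 0.32 (adjusted p = 0.561) and -0.70 ± 0.33 (adjusted p = 0.103, and 0.00118 with the replicate block). DDIT3, the proapoptotic factor CHOP, had -0.85 ± 0.46 (adjusted p = 0.178) and -0.71 ± 0.46 (adjusted p = 0.241, and 0.0395 with the block) at a level of 4.38 to 7.91 CPM in the group means.

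Among the chaperones, CRELD2, a disulfide isomerase induced by ER stress, rose 1.92-fold and 2.08-fold (adjusted p = 0.00763 and 0.00309, edgeR), from 27.4 ± 3.12 to 52.5 ± 9.02 CPM and from 24.4 ± 2.65 to 50.7 ± 10.4 CPM. SUMF1, the enzyme that activates sulfatases, rose 1.73-fold and 1.93-fold. HYOU1, an exchange factor of HSPA5, rose from 259 ± 17.2 to 402 ± 44.2 CPM and from 247 ± 25.9 to 395 ± 51.9 CPM (adjusted p = 0.00979 and 0.00521). DNAJC3, an HSPA5 cochaperone, rose in the control line (0.97 ± 0.29, adjusted p = 0.0176) and had 0.71 ± 0.29 in the knockdown line (adjusted p = 0.0663, and 0.0034 with the replicate block). HSPA13, a further HSP70 family member, fell by 1.16 and 1.36 on the log2 scale (adjusted p = 0.0186 and 0.00635). It was the called exception to the direction of its list in both lines.

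In the degradation list OS9, a lectin that delivers misfolded glycoproteins, rose 1.75-fold and 1.98-fold and MAN1B1, a mannosidase that marks them, 1.56-fold and 1.75-fold, while FAF2, a factor that recruits the extracting ATPase, fell 1.47-fold and 1.56-fold. SEL1L, the partner of SYVN1, had log2 changes of 0.16 ± 0.33 and -0.06 ± 0.33 (adjusted p = 0.75 and 0.912). EDEM1, another mannosidase of this route, had 0.42 ± 0.22 (adjusted p = 0.162, and 0.0397 with the replicate block) and 0.31 ± 0.22 (adjusted p = 0.295). SYVN1 and HERPUD1 thus fell in the same libraries in which OS9 and MAN1B1 rose.

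Of the translocation genes, SRP14 of the signal recognition particle rose 1.85-fold and 2.06-fold and SSR4 of the translocon-associated complex 1.77-fold and 2.08-fold. SRP19, another protein of that particle, fell 2.63-fold and 2.85-fold, at 4.75 ± 1.37 CPM in DMSO control cells. Of the export genes, TMED2, a cargo receptor of transport vesicles, rose 1.74-fold and 1.80-fold. SEC24A and SEC24D, cargo adaptors of the vesicle coat, fell 2.02-fold and 2.55-fold and 1.80-fold and 1.63-fold. The groups of each of these genes did not overlap in either line. They were picked as called alike in both lines with the largest changes, so this is no separate support.

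**Figure D3:**
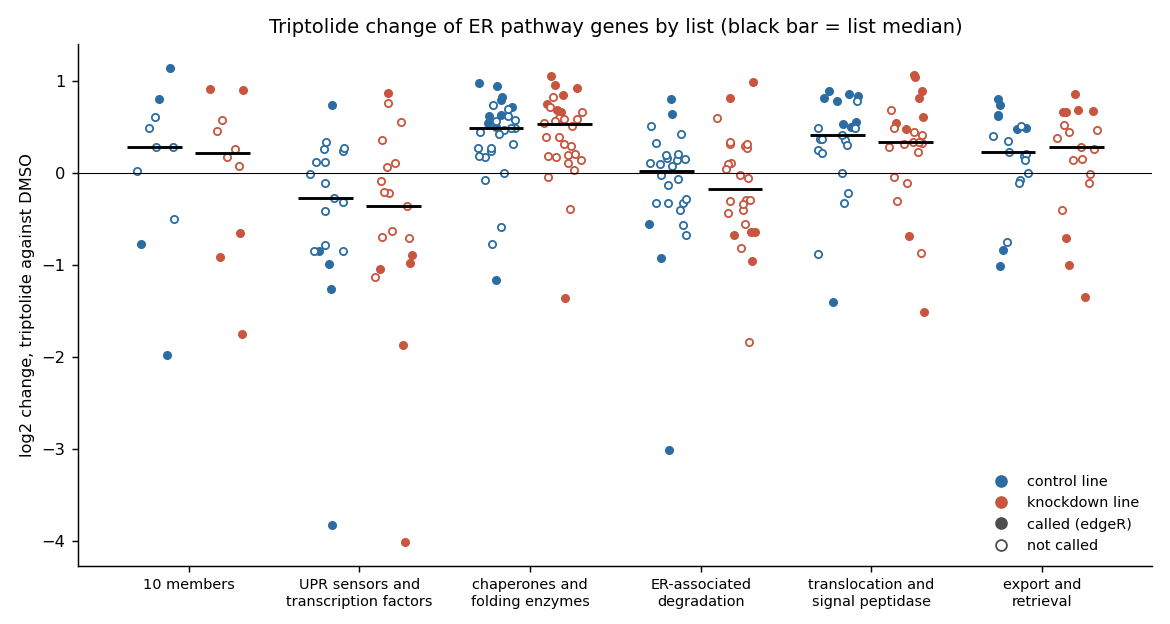
log2 change under triptolide against DMSO for the 10 members and for the genes of the 5 pathway lists, in the control (blue) and knockdown (red) line. Filled points passed the edgeR test over all genes and black bars are list medians, which run from -0.27 to 0.48 in the control line. The point near -4 is XBP1.

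The genes with an element in the promoter did not share a direction under triptolide. HERPUD1 fell, and HSPA5 and SDF2L1 were not called. HSP90B1 and CALR were called as higher with the replicate block, and CALR in the control line by DESeq2 as well. Among the 102 listed pathway genes found in the promoter table, ERSE lay in those of CANX, CRELD2, ERO1B, PDIA6 and XBP1 and ERSE-II in that of HYOU1. XBP1 fell and CRELD2 and HYOU1 rose, so their windows are printed in the same way.
XBP1, chr22:29196571-29196629, minus strand: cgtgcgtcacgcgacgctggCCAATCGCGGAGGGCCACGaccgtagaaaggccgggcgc
CRELD2, chr22:50312182-50312240, plus strand: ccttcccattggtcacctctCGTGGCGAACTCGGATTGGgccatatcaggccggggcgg
HYOU1, chr11:118927965-118928121, minus strand: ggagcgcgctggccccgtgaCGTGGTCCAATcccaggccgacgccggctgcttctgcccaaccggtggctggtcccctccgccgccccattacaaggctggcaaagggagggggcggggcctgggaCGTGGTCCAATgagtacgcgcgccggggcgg

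Of the 44 genes with either element, 34 were tested. In the control line 3 of these rose (8.82%) and 4 fell (11.8%), beside 14.9% and 16% of all tested genes. In the knockdown line 5 rose and 5 fell (14.7% each), beside 16.7% and 18.9%. These shares rest on few genes and were not tested.

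The knockdown line was compared with the control line within each treatment. No member was called by edgeR in untreated, DMSO or triptolide cells (0 of 10 each, and 0 each by DESeq2), beside 0.0987%, 0.094% and 0.0658% of all tested genes. In this fit, without the replicate block, 0 each had an unadjusted p under 0.05. With the block the count of calls stayed at 0 in each, beside 0.578%, 0.606% and 0.644%. Unadjusted p in edgeR with the block was under 0.05 untreated for HSP90B1 (0.00401), HERPUD1 (0.00561) and CALR (0.024). With DMSO it was so for HERPUD1 (0.00641) and SYVN1 (0.0148), and with triptolide for no member. The share of all tested genes at that level with the block is not given here. ADAR itself was not called by edgeR in any single treatment, at -0.70 ± 0.33 untreated, -0.69 ± 0.33 with DMSO and -1.46 ± 0.34 with triptolide. Under triptolide it was called with the block (adjusted p = 0.000192) and by DESeq2 (adjusted p = 0.0228). The untreated log2 differences, knockdown minus control, ran from -0.46 ± 0.31 for HSP90B1 (95% interval -1.13 to 0.20) to 0.20 ± 0.28 for HSPA5 (-0.39 to 0.78). With DMSO they ran from -0.42 ± 0.31 for HERPUD1 to 0.08 ± 0.23 for ERN1, and with triptolide from -0.47 ± 0.35 for DNAJB9 to -0.03 ± 0.34 for ATF6. These SE and intervals are from the fit without the block. With it the untreated SE was 0.14 for HSP90B1 and 0.25 for HSPA5. Of the other pathway genes 0 were called in each treatment, with 1, 0 and 1 at an unadjusted p under 0.05 without the block and 0 by DESeq2.

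Within pairs of equal treatment and replicate number, several members were lower in every knockdown library. This held for HSP90B1 (68.4 to 99.8% of the control library), PDIA4 (79.5 to 99.5%), CALR (52.5 to 98.6%) and HERPUD1 (67.3 to 97%) in 9 of 9 pairs with TMM scaling, for 2 members (CALR and HERPUD1) with median-of-ratios scaling, and for 0 with total counts or mitochondrial mRNAs. Of all tested genes 1.93% were lower in 9 of 9 pairs with TMM. The shares were 1.89% with median-of-ratios scaling, 1.24% with total counts and 0.301% with mitochondrial mRNAs. The smallest of these differences was close to none, and the 9 pairs are not independent, since 3 treatments share each line and each number. Untreated CALR measured 965, 954 and 940 CPM in control and 507, 835 and 927 CPM in knockdown cells, so that library 1 was far below and library 3 close to its partner. Untreated HERPUD1 measured 36.7, 70.3 and 43.9 CPM in control and 29.8, 47.3 and 34.4 CPM in knockdown cells, where the groups overlapped. HSPA5, SDF2L1 and SYVN1 were lower in 7 pairs, DNAJB9 in 5 and ERN1 and ATF6 in 4.

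Because of this pattern a difference averaged over the 3 treatments was added after the values were seen, and it is a description of the same pairs. With TMM scaling and without the block all 10 members were below 0 in it, with a median of -0.24 beside -0.03 over all genes. The share of all tested genes below 0 is not given here. With total counts ERN1 (0.01) and ATF6 (0.03) were above 0, where the median gene stood at 0.01. With mitochondrial mRNAs HSPA5 (0.01), ERN1 (0.05) and ATF6 (0.08) were above 0, where the median gene stood at 0.09. In the TMM fit without the block 0 members were called by edgeR (1 at an unadjusted p under 0.05, 0 by DESeq2) beside 0.836% of all tested genes. With the replicate block 1 member was called as lower, beside 1.54% of all tested genes: HERPUD1, at -0.34 (adjusted p = 0.0137), against -0.35 ± 0.18 (adjusted p = 0.933) without the block. HERPUD1 was called there after leaving out every library numbered 1 (adjusted p = 0.0372) and not after leaving out those numbered 2 or 3. HSP90B1 and CALR had adjusted p = 0.0779 and 0.0978 with the block. Unadjusted p with the block was under 0.05 for HERPUD1 (0.000302), HSP90B1 (0.00321), CALR (0.00448), PDIA4 (0.0181), SYVN1 (0.0181) and SDF2L1 (0.0353). It was not so for HSPA5, DNAJB9, ERN1 and ATF6, and the share of all tested genes at that level is not given here. ADAR stood at -0.95 ± 0.19 in this comparison (adjusted p = 0.0188). Of the other pathway genes the block called MARCHF6 (-0.41 ± 0.11, adjusted p = 0.127 without and 0.00073 with it), a ligase of ER-associated degradation, and DNAJB11 (-0.28 ± 0.10, 0.404 and 0.0476), an HSPA5 cochaperone. MARCHF6 and DNAJB11 are named because the block called them.

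**Figure D4:**
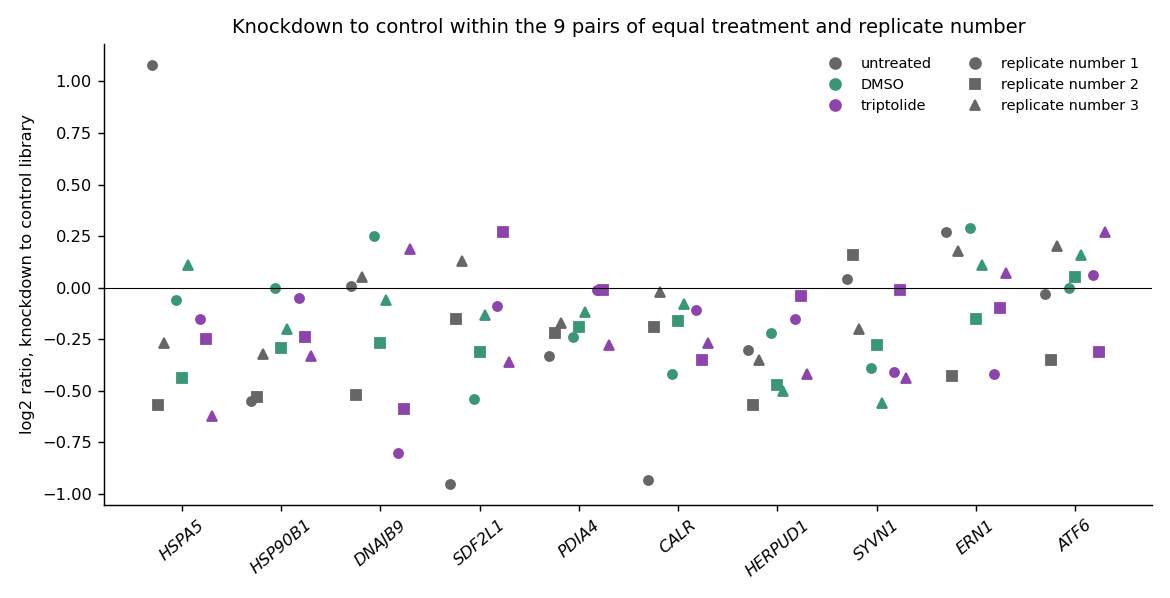
log2 ratio of the knockdown to the control library of the same treatment and replicate number for each mRNA, 9 pairs each, with a colour for each treatment and a symbol for each number. Points below 0 are lower in the knockdown library. All 9 points of HSP90B1, PDIA4, CALR and HERPUD1 lie below 0 with TMM scaling (2 of these genes with median-of-ratios scaling, 0 with total counts or mitochondrial mRNAs), while HSPA5 has 1 point at 1.08.

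That point of HSPA5 is the untreated knockdown library 1. Untreated HSPA5 measured 187, 218 and 249 CPM in control and 394, 147 and 207 CPM in knockdown cells, so library 1 was the highest of the 18 and the other knockdown libraries lay at or below the middle of the control values. In the same library HSP90B1, at 534 CPM, and CALR, at 507 CPM, were the lowest of the 18. The knockdown difference in untreated cells was 0.20 ± 0.28 with this library and -0.30 ± 0.23 without it. The difference of DMSO from untreated knockdown cells was -0.59 ± 0.28 with it and -0.09 ± 0.23 without it (adjusted p = 1 in each case, edgeR).

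DMSO was also compared with no treatment. No member was called in either line (edgeR, 0 of 10 each, 0 in the control and 1 in the knockdown line at an unadjusted p under 0.05, and 0 by DESeq2), beside 0% of all tested genes in each line. The 1 was HSPA5 in the knockdown line, with the library just described. Without HSPA5 the log2 differences of the members, DMSO minus untreated, ran from -0.36 ± 0.34 for DNAJB9 in the control line to 0.14 ± 0.20 for CALR in the knockdown line.

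The replicate number was visible in several of these mRNAs. Libraries numbered 2 held the highest HSP90B1, DNAJB9, PDIA4, HERPUD1 and ATF6 of their group in 6 of 6 groups, and the lowest SDF2L1 in 6 of 6. Of all tested genes, 8.28% were highest and 7.82% lowest in number 2 in 6 of 6 groups. Untreated control DNAJB9, for example, measured 7.36, 17.9 and 8.66 CPM, and SDF2L1 31.7, 12.3 and 19.6 CPM. ATF6 was in addition lowest in number 1 in 6 of 6 groups (10.1% of all tested genes), at 51.1, 109 and 58.9 CPM in untreated control cells. On the log2 scale number 2 exceeded the mean of the other numbers by 0.43 to 0.75 for HSP90B1 and by 0.41 to 1.00 for ATF6. HSPA5 followed no number, being highest in number 2 in 3 groups, in number 3 in 2 and in number 1 in 1. What the number marks beyond a biological replicate is not given in the sources used here.

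**Figure D5:**
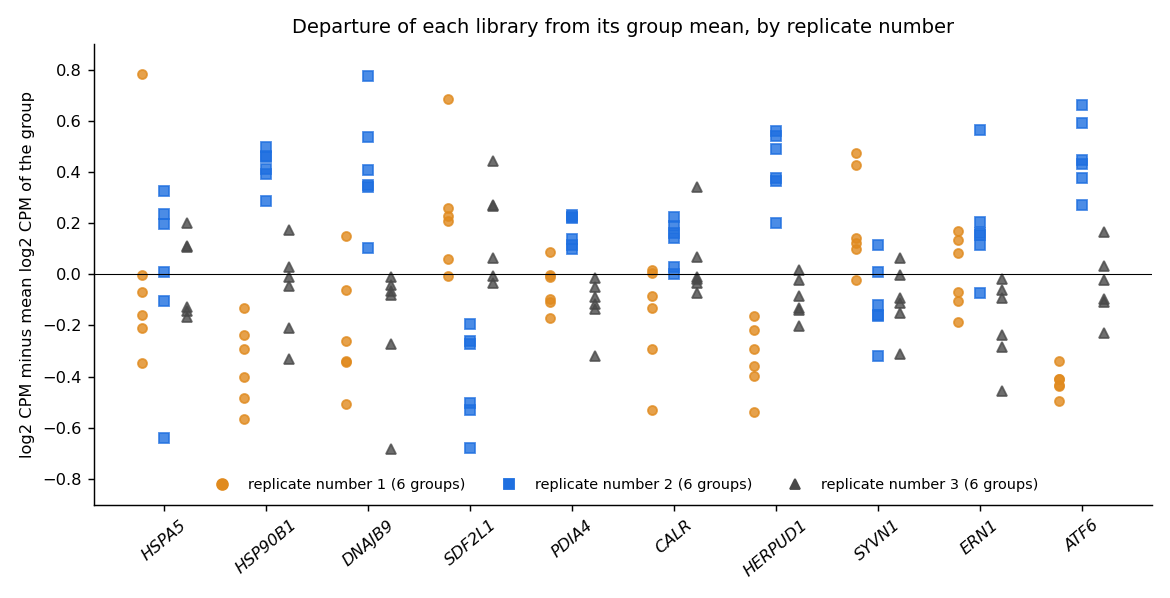
Difference of log2 CPM from the mean of its group for every library, by mRNA, with a colour and symbol for each replicate number (6 groups each). Libraries numbered 2 lie highest in 6 of 6 groups for HSP90B1, DNAJB9, PDIA4, HERPUD1 and ATF6 and lowest in 6 of 6 for SDF2L1.

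The mRNAs whose profile over the 18 libraries lay nearest to that of HSPA5 were sought among 8650 genes of at least 10 CPM, by the root mean square difference of log2(CPM + 1) values centred on each gene's mean. Among the 5 nearest were EIF5B, a translation initiation factor (0.244), IFNAR1, an interferon receptor chain (0.246), ANP32B, a nuclear phosphoprotein (0.246), and ETV3, a transcriptional repressor (0.257). The median over the candidates was 0.535. The other members were not among the nearest, from rank 2636 for SYVN1 (0.470) to rank 8287 for HERPUD1 (0.965), and DNAJB9 was below 10 CPM. SYVN1, ATF6 (0.516) and SDF2L1 (0.525) lay nearer to HSPA5 than the median candidate. CALR (0.542), PDIA4 (0.550), ERN1 (0.566) and HSP90B1 (0.581) lay somewhat beyond it. EIF5B measured 45.8 ± 2.3 CPM in DMSO and 46.0 ± 10.2 CPM in triptolide control cells.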

How the data were processed

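Total RNA of 18 libraries was sequenced from 500 ng with a stranded kit, per the labels' protocols. Reads were processed with STAR 2.4.2a, hg19, HTSeq 0.6.1, DESeq2 1.4.5 and R 3.1, per the submitters' processing notes, and the authors deposited raw counts per gene, 1 library a file. The strand setting and annotation release are not given in the sources used here. Of 60252 gene IDs, 58821 (97.6%) matched GENCODE release 44 on GRCh37. The 5 tally rows of reads given to no gene (24.88 to 35.4% of a file's total) stayed out of library sizes.

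Scaling was by TMM and testing by edgeR 4.0.16 (R 4.3.3, limma 3.58.1) in 1 fit of the 6 groups with 12 residual degrees of freedom, two-sided, checked on simulated counts. Levels are CPM with SD over 3 libraries, and SE is the log2 change over the square root of F. Residuals of libraries with the same replicate number correlated across genes at r of 0.43 to 0.849 (45 pairs), those with different numbers at -0.665 to -0.0189 (90 pairs), and each of the 18 libraries fitted its own number best. Equal numbers thus mark pairs, and the fit that blocks on them (residual degrees of freedom 10) is printed where it changes a call. No library was a copy: chi-square over its degrees of freedom was at least 53.4 for any replicate pair.

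Alternatives were other scalings (median of ratios, total counts, 13 mitochondrial mRNAs), DESeq2 1.42.0, no low-count filter, only the libraries compared, the block, and each library left out. Named were all members, ADAR, 8 preset pathway genes (XBP1, EIF2AK3, ATF4, DDIT3, SEL1L, DNAJC3, HYOU1 and EDEM1) and from each list up to 3 genes of at least 1 CPM, called alike in both lines, with the largest mean triptolide change. The members and lists were chosen with earlier results of these data known. Pair ratios used CPM + 0.1. Of the genes nearest to HSPA5, 1 is not reported here.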

Additional observations from a re-analysis of the deposited data

How the results depend on the processing

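Of 1620 recomputed changes of the members (9 comparisons), 1581 kept their side of the threshold and, where called, their direction (changes called in neither fit could change sign), 17 gained a call, 17 lost one and 5 reversed. The 5 came with scaling to mitochondrial mRNAs in the knockdown line under triptolide: HSPA5 -1.30, SDF2L1 -1.19, PDIA4 -0.46, ERN1 -0.47 and ATF6 -1.21, where the median gene stood at -1.36. The count of members called under triptolide, 4 in the control line, was 2 with that scaling, 6 with the replicate block and 7 with the block without every library numbered 1, and 4 after leaving out any 1 of the 6 libraries compared. In the knockdown line the count of 5 was 3 with total counts and 7 with the replicate block, and 3 to 5 over single left-out libraries, being 3 without DMSO library 1 or 2 or triptolide library 1 or 3. Pathway genes called in the control line (37) numbered 69 with the replicate block, 61 with it and without number 1, 23 without the low-count filter (7 higher and 16 lower), 24 with only the libraries compared, and 19 to 33 over single left-out libraries, with 24 without DMSO library 1 or triptolide library 1 and 19 without DMSO library 3. In the knockdown line (37) they numbered 75 with the replicate block, 74 with mitochondrial scaling, 60, 63 and 57 with the block and without numbers 1, 2 and 3, and 29 to 39 over single left-out libraries. Without the filter 13 were higher and 19 lower there. The causes were not tested. Counts of 0 members called, between the lines within each treatment, for the interaction and for DMSO, held under every alternative run. Over all genes, the block moved the calls under triptolide from 6565 to 11089 and from 7589 to 12163, and those between the lines from 21, 20 and 14 to 123, 129 and 137.

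The fewest counts in a library were 73 for DNAJB9, 197 for HERPUD1, 302 for SDF2L1, 373 for ERN1 and 479 for SYVN1. A p that misses the threshold does not show that the lines are alike, and 3 libraries a group leave wide intervals.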
